A study of Mus musculus with 64 samples.

Results

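The 10 genes studied mark the zones of the liver lobule and were followed through the liver, fat and muscle of mice with or without the transcription factor gene Myc. They were chosen by name: 5 periportal genes (Cyp2f2, Hal, Sds, Pck1 and Gls2) and 5 pericentral genes (Glul, Cyp2e1, Cyp1a2, Oat and Rhbg). All 10 were found by gene ID among the 36332 distinct IDs of the deposited table. The choice was made with earlier results of these data known.

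Blood enters the liver lobule at the portal vein and leaves at the central vein, and hepatocytes along that path do different work. Periportal hepatocytes make glucose and urea and break down amino acids, and pericentral hepatocytes take up the remaining ammonia as glutamine and carry much of the cytochrome P450 oxidation. Wnt signals from central vein endothelium, through beta-catenin and TCF or LEF factors, hold the pericentral program in place.

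RNA was sequenced from liver, omental adipose tissue and skeletal muscle of KO and WT mice at 5 and 20 months of age, 64 libraries in 12 groups. Per the labels, KO mice came from a cross of the Gt(ROSA)26Sor cre/ERT2 line, whose tamoxifen-activated Cre is not limited to one cell type, with the Myc tm2Fwa line, both with B6.129 names. WT mice were C57/B6, so genotype, Cre and strain background cannot be told apart. All groups, WT included, were labelled as given 5 injections of tamoxifen (75 mg/kg) at weaning, from a body weight of 15 g. The liver groups held 6 WT and 6 KO libraries at 5 months and 5 WT and 5 KO libraries at 20 months. In the library codes K or W stands for the genotype and L, F or S for liver, adipose tissue or muscle. The number after K or W in the codes of the old libraries differs from the 20 months in their titles, which is the age used here.

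The 22 liver libraries held 16.3 to 25.4 M reads on genes (M, mega), with a median of 21.2 M. Values are the deposited CPM, a read signal on a scale of the authors' own. Myc itself was lower in KO livers. KO values ran from 1.16 to 4.04 CPM and WT values from 5.46 to 33.7 CPM at 5 months. At 20 months they ran from 1.13 to 2.92 CPM and from 5.36 to 7.61 CPM. In young adipose tissue the KO range of Myc (2.87 to 10.48 CPM) lay under the WT range (11.2 to 22.8 CPM). The ranges overlapped in old adipose tissue (5.14 to 9.72 CPM in KO, 8.10 to 16.3 CPM in WT), in young muscle (5.00 to 17.1 CPM, 6.15 to 81.3 CPM) and in old muscle (1.75 to 10.2 CPM, 4.97 to 13.1 CPM). Alb, the hepatocyte gene for serum albumin, ran from 76582 to 151488 CPM over the liver libraries. Xist, which marks RNA from females, was on in 2 of 6 libraries of each young liver group and in none of the 10 old ones, so the ages also differ in sex. For members, values without the Xist libraries are given where they change a call, and for genes of the lists where a call is lost. Calls of cell type markers come from the main fit alone, and no other setting was read for them.

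The promoters of 7 of the 10 genes were in the RefSeq table of assembly GRCm38.p6 (not Sds, Gls2 or Rhbg). The 250 bases before the start are printed for Glul, Cyp2e1, Cyp1a2, Hal and Pck1, 5′ to 3′ on the gene's strand. Those of Cyp2e1, Cyp1a2 and Hal are shown because they share a TCF and LEF core, that of Pck1 because it holds a cAMP response core, and that of Glul because it held none of the motifs searched although the gene is a known beta-catenin target. Capitals mark the matches.
Glul, chr1:153899679-153899928, plus strand: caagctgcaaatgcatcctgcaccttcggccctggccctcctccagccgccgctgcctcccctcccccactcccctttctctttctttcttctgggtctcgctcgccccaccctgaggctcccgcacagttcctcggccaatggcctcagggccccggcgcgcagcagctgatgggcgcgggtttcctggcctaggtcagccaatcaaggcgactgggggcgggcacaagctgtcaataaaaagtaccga
Cyp2e1, chr7:140763569-140763818, plus strand: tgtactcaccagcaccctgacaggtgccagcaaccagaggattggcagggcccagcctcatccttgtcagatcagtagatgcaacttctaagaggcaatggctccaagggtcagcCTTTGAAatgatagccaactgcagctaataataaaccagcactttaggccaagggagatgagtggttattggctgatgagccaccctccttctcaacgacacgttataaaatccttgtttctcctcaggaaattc
Cyp1a2, chr9:57683656-57683905, minus strand: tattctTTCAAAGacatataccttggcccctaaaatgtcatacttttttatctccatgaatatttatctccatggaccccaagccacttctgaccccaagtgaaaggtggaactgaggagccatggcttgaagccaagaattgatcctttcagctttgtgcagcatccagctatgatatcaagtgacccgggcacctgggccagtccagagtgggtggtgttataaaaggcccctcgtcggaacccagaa
Hal, chr10:93488518-93488767, plus strand: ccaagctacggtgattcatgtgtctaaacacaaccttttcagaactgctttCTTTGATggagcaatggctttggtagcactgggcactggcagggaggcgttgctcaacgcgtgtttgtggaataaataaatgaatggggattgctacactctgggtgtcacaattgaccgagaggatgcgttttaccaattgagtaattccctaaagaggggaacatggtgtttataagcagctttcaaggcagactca
Pck1, chr2:173152823-173153072, plus strand: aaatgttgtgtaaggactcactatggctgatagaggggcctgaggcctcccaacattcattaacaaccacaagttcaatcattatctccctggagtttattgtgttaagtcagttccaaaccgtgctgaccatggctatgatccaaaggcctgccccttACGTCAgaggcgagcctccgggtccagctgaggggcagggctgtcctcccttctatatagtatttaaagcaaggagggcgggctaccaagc

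The motifs were searched on both strands. The TCF and LEF core, CTTTGAT or CTTTGAA, was in 3 of the 7 promoters and in 7.48% of all 32851 promoters in the table. It began at position -135 in Cyp2e1, -244 in Cyp1a2 and -199 in Hal, counted back from the start. The first 2 of these genes are pericentral and Hal is periportal. The cAMP response core, TGACGT or TGACGCA, was in Pck1 alone of the 7, at position -91, and in 8.003% of all promoters. A nuclear receptor core, AAGTCCA or AAGGTCA, was in Cyp2f2 alone, at -222, and in 7.26% of all promoters. The E-box CACGTG, the core that Myc binds, was in none of the 7 and in 6.02% of all promoters, and the glucocorticoid receptor core TGTTCT was in none of the 7 and in 16.1%. No match overlapped a match of another motif. These are letters in a short window, and no binding was measured.

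The first question was whether loss of Myc changed the zonation genes in young liver. No member passed the test at 5 months, on a background of 0.0696% of tested genes called (9 of 12924 genes). The values of KO and WT overlapped for all 10. The test was limma on log2(CPM + 1) across all tested genes, and a gene is called at a Benjamini-Hochberg adjusted p under 0.05. 2 members, Gls2 and Sds, had an unadjusted p under 0.05 with limma, beside 897 of 12924 tested genes. With edgeR and DESeq2, 0 members were called as well. The limma p-values weigh each difference against the spread between libraries within groups, estimated over all 4 groups of the tissue. The code numbers of most young libraries recur across the 3 tissues, with the same Xist status each time, but the labels do not say that a number is an animal, and no test here compares tissues.

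The 5 periportal genes were all a little lower in young KO liver on this scale and 4 of the 5 pericentral ones a little higher, with medians of -0.26 and 0.11 beside 0.01 over all tested genes. Some of these signs turned in other settings. Rhbg was at -0.056 with edgeR and -0.055 with DESeq2, and Cyp2e1 at -0.025 without W5L5299. Without the Xist libraries Hal was at 0.013, and Oat, the pericentral gene that was lower, at 0.21. Gls2, the liver glutaminase that frees ammonia from glutamine, ran from 460 to 776 CPM in WT (median 572) and from 375 to 586 CPM in KO (median 434). KO minus WT was -0.43 in log2(CPM + 1), SE 0.162, with an adjusted p of 0.559 by limma. The groups overlapped, with 4 KO values below the lowest WT value. Sds, serine dehydratase, ran from 249 to 610 CPM in WT and from 123 to 695 CPM in KO, and its difference was -0.79 (SE 0.376, adjusted p = 0.707 with limma). Its KO values were spread over more than the whole WT range. In the pericentral group Cyp1a2 had the largest difference, 0.40 (SE 0.299, adjusted p = 0.855 with limma).

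At 20 months no member passed the limma test either, on a background of 0.0232% called (3 of 12924 genes). Glul was the one member whose groups stood apart. It encodes glutamine synthetase, which joins ammonia to glutamate in the last hepatocytes before the central vein. The 5 old WT livers held 570, 515, 735, 692 and 575 CPM, and the 5 old KO livers held 1107, 1405, 999, 759 and 1140 CPM. Every KO value was above every WT value, the nearest pair being 759 CPM in KO and 735 CPM in WT. Groups that did not overlap, KO higher, made up 1.45% of tested genes. The KO mean was 1.75 times the WT mean, the difference was 0.79 (SE 0.184), and the unadjusted p of 0.000279 became an adjusted p of 0.241 with limma. DESeq2 gave 0.0175 and called Glul, and edgeR did not. Over all settings the adjusted p ran from 0.0175 to 0.677. Glul was the only member with an unadjusted p under 0.05 with limma in this comparison, beside 750 of 12924 tested genes.

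Rhbg, an ammonium channel of the same perivenous cells, had a difference of similar size and a wider spread. Old WT livers held 3.84, 3.06, 15.0, 6.40 and 1.63 CPM and old KO livers held 7.65, 15.4, 9.16, 6.80 and 8.52 CPM. The WT library W18L03 lay within the KO range and the 4 others below it. The difference was 0.83 (SE 0.433, adjusted p = 0.860 with limma). The other 8 members differed by between -0.28 (Cyp2e1) and 0.14 (Oat). The sign of Cyp2f2, Hal, Sds, Pck1, Cyp1a2 and Oat turned under at least 1 other scaling, tool or left-out library.

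**Figure D1:**
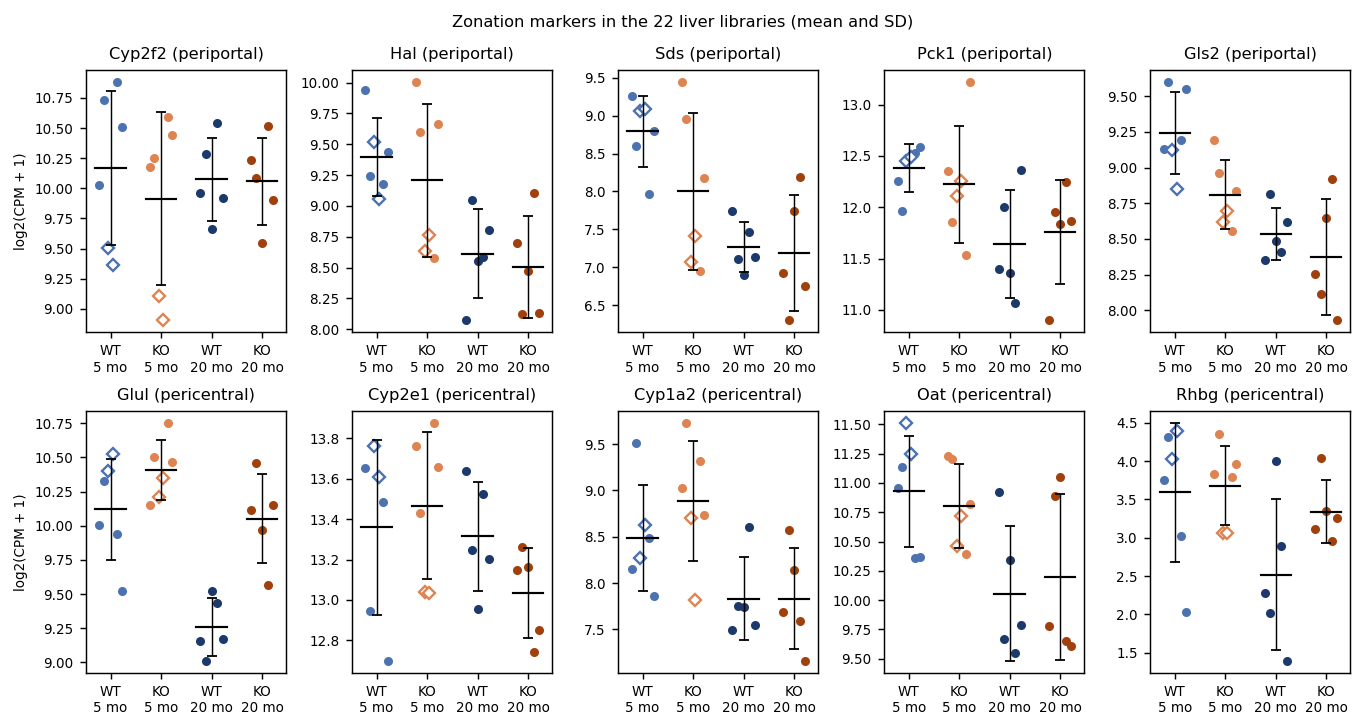
Levels of the 10 zonation genes in the 22 liver libraries, as log2(CPM + 1) on a separate vertical axis per gene. Each point is a library, open diamonds are libraries with Xist, bars are the mean and SD; Glul in old WT livers (515 to 735 CPM) lies under all old KO livers (759 to 1405 CPM).

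The ages were compared next. In WT liver 3 of 10 members fell between 5 and 20 months (Glul, Gls2 and Sds) and none rose, on a background of 4.36% of tested genes called lower and 7.19% called in either direction (929 of 12924 genes, of which 39.4% were higher). All 10 differences were below 0, with a median of -0.76 beside -0.01 over all tested genes. In bulk tissue, fewer cells of a zone and less RNA per cell cannot be told apart. With each library rescaled to the same total, the median of all genes moved from -0.01 to 0.17 in WT and from -0.02 to 0.15 in KO. The share of called genes that were higher went from 39.4% to 84.2% in WT and from 56.2% to 93.8% in KO. In KO that share was 66.8% with TMM factors and 65.7% with edgeR. On the rescaled values Cyp2f2 and Cyp2e1 lay above 0 in WT ageing.

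Glul fell most clearly. Young WT livers ran from 733 to 1476 CPM with a median of 1154 CPM, and the old ones from 515 to 735 CPM. The old mean was 0.541 of the young mean, a difference of -0.86 (SE 0.176, adjusted p = 0.00531 with limma). The ranges met at one point only, where W5L5299 held 733 CPM and W18L03 held 735 CPM. Glul was called in all 11 fits that left out 1 library and in all 9 other settings, with adjusted p from 7.98e-05 to 0.0495.

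Gls2 fell from 460 to 776 CPM in young WT livers (median 572) to 325, 448, 358, 338 and 392 CPM in old ones. No old value reached the lowest young one. The difference was -0.71 (SE 0.170, adjusted p = 0.0148 with limma). On rescaled values it was -0.49 with an adjusted p of 0.0802 (limma). Glul and Gls2 catalyse opposite steps, glutamine made at the central vein and glutamine opened at the portal vein, and both were lower in old WT liver.

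Sds fell by the largest amount. It breaks serine down to pyruvate in periportal cells. Young WT livers ran from 249 to 610 CPM (median 487), and old ones held 212, 137, 119, 176 and 140 CPM. The old mean was 0.341 of the young mean, with no overlap, and the difference was -1.52 (SE 0.395, adjusted p = 0.0234 with limma). The call depended on single libraries: it was lost without W18L02, W18L03, W18L05, W5L5004 or W5L5042, and, at -1.38 with an adjusted p of 0.0885 (limma), without the Xist libraries.

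Hal, histidine ammonia lyase, had the same shape without passing the test. Young WT livers ran from 532 to 983 CPM (median 648), and old ones held 269, 528, 375, 384 and 445 CPM. The groups did not overlap and the difference was -0.78 (SE 0.253, adjusted p = 0.0619 with limma). With Sds and Gls2 it makes 3 of 10 members whose old values all lay under the young ones, against 2.79% of tested genes. Hal was called with DESeq2 (adjusted p = 0.0353), with sex as a covariate (0.0292, limma) and with the 2 WT groups fitted alone (0.0436, limma).

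The other 6 members did not pass in WT ageing. Oat, ornithine aminotransferase, ran from 1314 to 2923 CPM in young WT livers and from 748 to 1941 CPM in old ones, a difference of -0.87 (SE 0.301, adjusted p = 0.0767 with limma). Rhbg ran from 3.10 to 20.0 CPM and from 1.63 to 15.0 CPM, a difference of -1.08 (SE 0.415, adjusted p = 0.107 with limma). Leaving out W5L5277 or W5L5299 gave 5 called members in place of 3. Pck1, the gluconeogenic enzyme, ran from 3981 to 6172 CPM and from 2144 to 5258 CPM, a difference of -0.74 (adjusted p = 0.101 with limma). Cyp1a2, an oxidase of drugs and aromatic amines, differed by -0.66 (adjusted p = 0.193 with limma). Cyp2f2 at -0.10 and Cyp2e1 at -0.05, a pair of cytochrome P450 genes of opposite zones, were nearest to 0, and both changed sign under other settings.

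**Figure D2:**
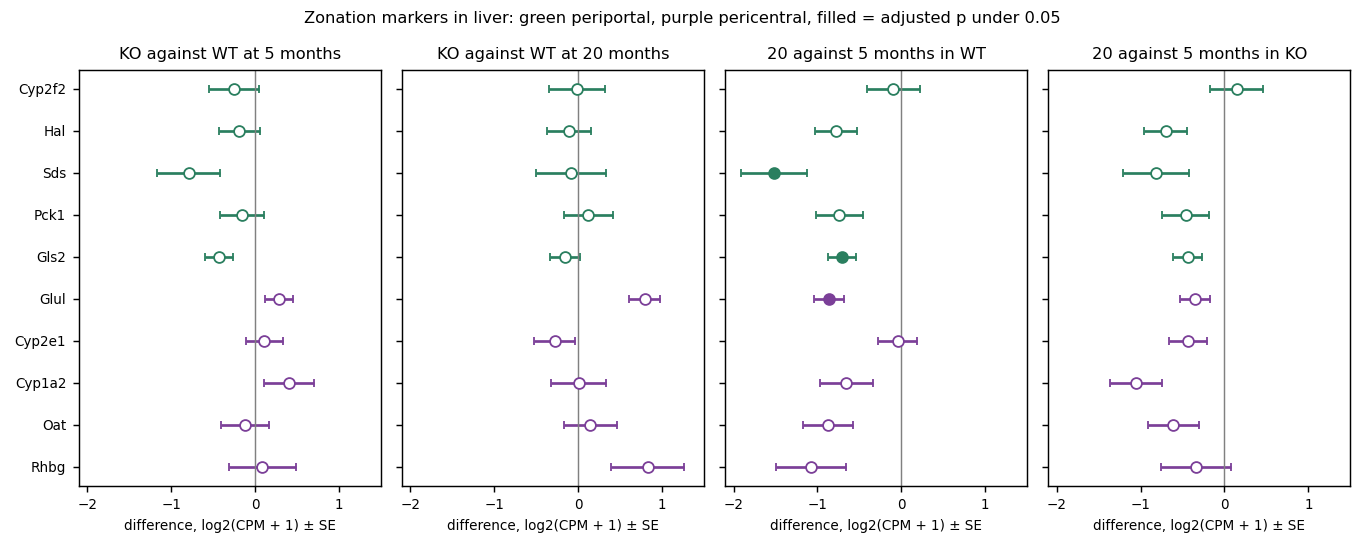
Differences in log2(CPM + 1) with their standard errors for the 10 genes in 4 liver comparisons, periportal genes in green and pericentral genes in purple. Filled points passed the test: Sds (-1.52), Gls2 (-0.71) and Glul (-0.86) in WT ageing, and none in the other 3 comparisons.

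In KO liver the same comparison called no member with limma, on a background of 2.99% (386 of 12924 genes). An unadjusted p under 0.05 was found for 3 of 10 members and for 2484 of 12924 tested genes. edgeR called 0 and DESeq2 called 1, Cyp1a2. 9 of 10 differences were below 0, with a median of -0.45 beside -0.02 over all tested genes. Cyp1a2 ran from 225 to 848 CPM in young KO livers (median 472), and old ones held 206, 380, 281, 192 and 142 CPM. Its difference was -1.05 (SE 0.314, adjusted p = 0.0680 with limma), and it was called with sex as a covariate (0.0340), without the Xist libraries (0.0247) and without K5L5118 (0.0246). K5L5118, at 225 CPM, was the only young KO library within the old range. Hal ran from 382 to 1028 CPM in young KO livers and from 278 to 548 CPM in old ones, with overlap. Its difference was -0.70 (SE 0.253, adjusted p = 0.131 with limma), and without the Xist libraries, where 567 of 12924 genes were called, it was -0.96 (adjusted p = 0.0492). Glul differed by -0.35 (SE 0.176, adjusted p = 0.276 with limma), Sds by -0.82 (adjusted p = 0.261) and Gls2 by -0.44 (adjusted p = 0.160).

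The test of whether ageing differed between the genotypes called no member and no gene at all with limma (0% of 12924 genes). No member had an unadjusted p under 0.05, beside 507 of 12924 tested genes. For Glul that difference was 0.51 (SE 0.249, adjusted p = 0.991 with limma), so a fall in WT and a smaller value in KO are not shown to differ. The WT ageing and the 20-month comparison share the old WT livers, whose mean Glul level (618 CPM) was the lowest of the 4 groups.

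The balance of the zones was summarised per library as the mean log2(CPM + 1) of the periportal genes minus that of the pericentral genes. It was 0.70 ± 0.57 in young WT livers (SD, n = 6), 0.18 ± 0.37 in young KO (SD, n = 6), 0.63 ± 0.47 in old WT (SD, n = 5) and 0.29 ± 0.65 in old KO (SD, n = 5). All 4 ranges overlapped.

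Other genes of the lobule were read from lists. Of 16 further periportal genes, 6 fell with age in WT liver (Ass1, Asl, Cps1, Arg1, Tat and Cdh1) and none rose, with a list median of -0.43, beside 4.36% of all tested genes called lower. Of 23 further pericentral genes, Slc1a2 and Cyp27a1 fell, Aldh1a1 rose, and the median was 0.13. Aldh1a1 (1.12, adjusted p = 0.0385 with limma) lost its call in 5 settings, among them without the Xist libraries (0.174), and in 8 of 11 fits that left out 1 library, and Cyp27a1 (-0.86, adjusted p = 0.00281 with limma) kept it in all. In KO ageing Cps1, Cdh1 and Slc1a2 fell and nothing in either list rose, beside 2.99% of all tested genes called in either direction. The KO call of Cps1 (-1.45, adjusted p = 0.0395 with limma) was lost in 4 settings, among them without the Xist libraries (0.0615), and in 9 of 11 fits that left out 1 library. KO against WT called none of these genes at either age.

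The urea cycle genes, which turn ammonia into urea in periportal cells, were among those that fell. Cps1, the first enzyme, ran from 3762 to 14224 CPM in young WT livers and from 1800 to 2708 CPM in old ones, a difference of -1.61 (SE 0.380, adjusted p = 0.0138 with limma). Ass1 ran from 4295 to 8895 CPM and from 1513 to 2206 CPM, a difference of -1.54 (adjusted p = 0.00265 with limma). In both genes no old value reached the lowest young one. Asl differed by -1.65 (adjusted p = 0.0199) and Arg1 by -0.96 (adjusted p = 0.0351), both with overlap. Without the Xist libraries Cps1 (adjusted p = 0.0691), Asl (0.118) and Arg1 (0.169) were not called, and Ass1 was. Arg1 was also lost in 4 other settings and in 7 of 11 fits that left out 1 library, and Asl was lost without W18L04. Otc, the remaining cycle enzyme, was at 202 to 579 CPM in young WT and 365 to 515 CPM in old WT livers and was not called.

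**Figure D3:**
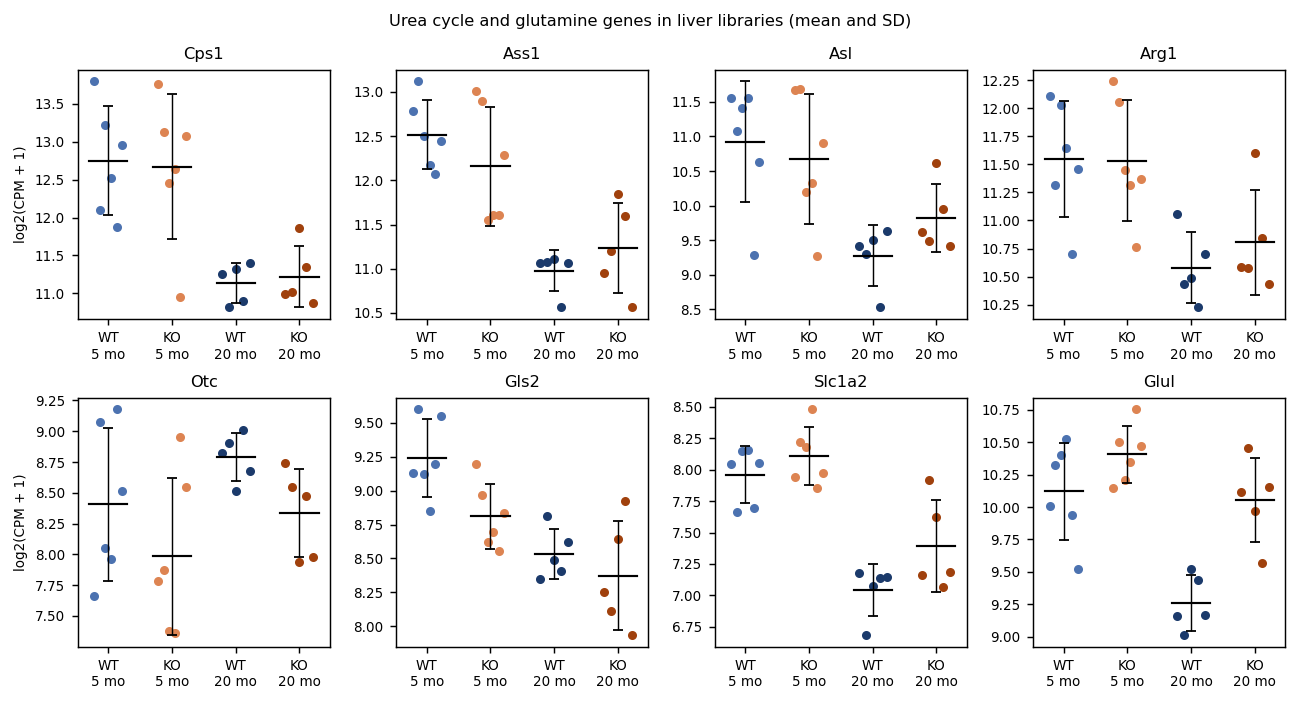
Levels of 5 urea cycle genes and of Gls2, Slc1a2 and Glul in the 22 liver libraries, as log2(CPM + 1), with 1 point per library and bars for the mean and SD. Old WT livers lie under all young WT livers for Cps1, Ass1, Gls2 and Slc1a2, and Otc is not lower in them.

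Among 20 tested genes of amino acid and ammonia handling, 7 fell with age in WT liver and none rose, with a median of -0.25, beside 4.36% of all tested genes called lower. Beside Ass1, Asl and Cps1 they were Got1, Sdsl, Slc1a2 and Prodh. Got1, the cytosolic aspartate aminotransferase, ran from 362 to 1804 CPM in young WT livers and from 98.7 to 289 CPM in old ones, a difference of -2.68 (SE 0.553, adjusted p = 0.00554 with limma). Sdsl, a gene related in sequence to Sds, differed by -1.85 (adjusted p = 0.0138) and was not called without the Xist libraries (adjusted p = 0.0740). Slc1a2, the glutamate transporter of perivenous cells, ran from 201 to 284 CPM and from 102 to 144 CPM, a difference of -0.92 (SE 0.154, adjusted p = 0.00128 with limma). It fell in KO liver as well, by 0.72 (adjusted p = 0.0166 with limma), a call lost on rescaled values (0.0757), with the 2 KO groups alone (0.0518) and without K18L06, K18L09 or K18L10. Prodh, proline dehydrogenase, differed by -0.70 (adjusted p = 0.0370) and lost its call in 4 settings, among them without the Xist libraries (0.127), and in 8 of 11 fits that left out 1 library.

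Of 24 tested genes of Wnt signalling and its targets, Hnf4a fell and Rspo1 rose in WT ageing, and the list median was 0.01. With 7.19% of all tested genes called in either direction, that count is near the background and is no result about the list. Axin2, the common readout of beta-catenin, ran from 9.94 to 25.02 CPM in young WT livers and from 12.0 to 20.7 CPM in old ones, and the target gene Lgr5 from 2.53 to 7.53 CPM and from 2.73 to 13.4 CPM. The groups overlapped for both genes. Hnf4a, a transcription factor that opposes beta-catenin in periportal cells, differed by -0.60 (adjusted p = 0.0142 with limma), or -0.39 on rescaled values (adjusted p = 0.0555). Rspo1, a ligand that strengthens Wnt signals, was at 0.250 to 1.35 CPM and at 0.666 to 2.40 CPM, and its call was lost in 4 settings, among them without the Xist libraries (0.0938), and in 7 of 11 fits that left out 1 library. In KO ageing Wnt2 had the largest fall of the list, -0.73, and did not pass (adjusted p = 0.0539 with limma).

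Cdh1, the E-cadherin gene, was the largest mover of the periportal list in both genotypes. It ran from 18.2 to 67.1 CPM in young WT livers and from 1.95 to 11.2 CPM in old ones, a difference of -2.75 (adjusted p = 0.000347 with limma), and differed by -2.83 in KO (adjusted p = 0.000637 with limma). Of 4 midlobular genes Hamp, the iron hormone hepcidin, fell in WT ageing (-1.26, adjusted p = 0.0262 with limma) and Igfbp2 in KO ageing (-1.50, adjusted p = 0.0317 with limma), each lost in some settings, Hamp among them without the Xist libraries (0.0972). Of 15 fasting and feeding genes, Tat, a tyrosine-degrading enzyme that fasting hormones induce, was the only one called in WT ageing (-1.61, adjusted p = 0.0185 with limma) and was lost without the Xist libraries (0.111). The labels used here do not give the feeding state or the hour of collection.

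Markers of hepatocytes and of other liver cells moved as well in WT ageing, where 4.36% of all tested genes were called lower and 7.19% in either direction. Of 7 hepatocyte markers, Fgb (-0.80) and Ahsg (-0.88) fell and none rose. Their sum ran from 126008 to 227403 CPM in young and from 116237 to 139625 CPM in old WT livers. All 5 macrophage markers were below 0, with Clec4f (-1.19) and Timd4 (-1.06) called. Lrat, of stellate cells, rose (0.88), Wt1, of the mesothelium list, rose (0.98), and Fabp4, of the adipocyte list, fell (-0.88). The mesothelium sum ran from 4.41 to 12.2 CPM in young and from 5.77 to 19.1 CPM in old WT livers. The adipocyte sum ran from 18.2 to 403 CPM in young and from 79.1 to 483 CPM in old WT livers. Both sums overlapped between the ages. The sum of the 5 stellate markers, Lrat included, ran from 206 to 443 CPM in young WT livers and from 261 to 413 CPM in old ones. The median of that sum went the other way from Lrat, from 394 to 339 CPM. None of 7 endothelial and 5 bile duct markers was called with limma in either genotype. 6 of the 7 endothelial markers were below 0 in WT (median -0.31) and 6 in KO (median -0.50). The endothelial sum ran from 162 to 278 CPM in young WT and from 119 to 172 CPM in old WT livers, with overlap, and from 173 to 322 CPM in young KO and 123 to 159 CPM in old KO livers, without overlap. In KO ageing, where 2.99% of all tested genes were called, all 5 macrophage markers were below 0 as well (median -0.92), with Timd4 (-1.11) called. Their sum went from 286 to 473 CPM in young to 155 to 245 CPM in old KO livers. The part of these changes in the results on the zonation genes was not tested.

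Within the young livers, Cyp2f2 followed Xist. The 4 libraries with Xist held 726 and 657 CPM (WT) and 552 and 480 CPM (KO). The 8 others ran from 1041 to 1888 CPM in WT and from 1158 to 1545 CPM in KO. The 4 Xist libraries were the 4 lowest of the 12 young livers, a pattern seen in the values and not tested. Without them the KO ageing difference of Cyp2f2 went from 0.14 to -0.31 (adjusted p = 0.418 with limma). No other member split this way over both genotypes. For Glul the Xist libraries held ranks 5 to 11 of 12, counted from the lowest. Within young WT livers alone they held the highest Glul values, 1351 and 1476 CPM, against 733 to 1281 CPM in the 4 others. In young KO livers they held 1184 and 1304 CPM, within the 1136 to 1726 CPM of the others. Other members split within a single genotype as well. Gls2 in young WT livers held 460 and 557 CPM with Xist and 559 to 776 CPM without.

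The genes most like Glul and Cyp2f2 were sought among 9843 liver genes (mean at or above 5 CPM), by Pearson's r over the 22 liver libraries after each group's mean was removed. Nearest to Glul were Taf5 (r = 0.80), Eif4e2 (0.78), Rhbg (0.76), Txn1 (0.76) and Fbl (0.76). Rhbg, itself one of the 10, ranked at 3. Gls2 lay at the other end, with r = -0.63 at rank 9753. Nearest to Cyp2f2 were Cyp4v3 (0.95), Afmid (0.93), Acadsb (0.92), Rassf3 (0.91) and Alas2 (0.91), and the nearest member was Cyp1a2 (0.44, rank 1186). The points of such a correlation share library, depth and sex, and it is given as a description.

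Outside the liver only some of the genes were expressed. In adipose tissue 7 of 10 passed the filter on low values (not Sds, Gls2 and Cyp1a2), and Pck1, Glul and Cyp2e1 had the highest levels. In adipose tissue, where Pck1 feeds glycerol synthesis, KO against WT called no member with limma at 5 months (background 0.105%) or at 20 months (background 0%). The unadjusted p was under 0.05 for 0 members at 5 months and for 1, Glul, at 20 months, beside 1692 and 321 of 14286 tested genes. With edgeR and DESeq2, 0 members were called at both ages. Rhbg differed by 0.29 at 5 months (adjusted p = 0.837 with limma), or -0.15 with edgeR. Without the Xist libraries it was 1.10 and called (adjusted p = 0.0392 with limma), in a fit that called 531 of 14286 genes in place of 15. Glul again stood apart at 20 months. Old WT libraries held 591, 425, 537, 387 and 509 CPM and old KO libraries held 737, 810, 1101, 1012 and 836 CPM. No values overlapped (0.644% of tested genes, KO higher), the KO mean was 1.84 times the WT mean and the difference was 0.88 (SE 0.347, unadjusted p = 0.0195, adjusted p = 1 with limma).

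Cyp2e1, Cyp2f2 and Glul fell with age in WT adipose tissue, 3 of the 7 tested, on a background of 3.36% called lower. Cyp2e1 ran from 440 to 4859 CPM in young WT and held 281, 194, 211, 148 and 538 CPM in old WT, a difference of -3.27 (SE 0.572, adjusted p = 0.00162 with limma). Cyp2f2 ran from 10.97 to 165 CPM and held 3.06, 3.74, 1.75, 0.888 and 2.27 CPM, a difference of -3.45 (SE 0.605, adjusted p = 0.00165 with limma). The groups of Cyp2f2 and Glul did not overlap (4.65% of tested genes, old lower), and 1 young library, W5F5006, brought Cyp2e1 into overlap. Glul ran from 660 to 2804 CPM in young WT, and its difference was -1.37 (SE 0.332, adjusted p = 0.0135 with limma). The highest 2 of those values, 2804 and 2284 CPM, were the libraries with Xist, and without these libraries the difference was -0.86 (adjusted p = 0.0536 with limma). In KO adipose tissue Cyp2e1 (-2.61, adjusted p = 0.00668) and Cyp2f2 (-2.34, adjusted p = 0.0166) fell, on a background of 3.75% called lower, and Cyp2f2 lost its call without K18F30 (adjusted p = 0.0599). Rhbg, at or under 8.31 CPM, was not called in either genotype but was in some settings, in KO among them without the Xist libraries (-1.28, adjusted p = 0.00426 with limma). 4 young adipose libraries (3 KO and 1 WT) held the epididymis transcript Crisp1 at 791 to 5461 CPM. Without them no call of a member in ageing was lost, and Oat gained a call in WT ageing (-0.46, adjusted p = 0.0376 with limma).

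Markers of other cells were read in the same adipose libraries. Of all tested genes, 3.36% were called lower with age in WT and 3.75% in KO. Of the 5 genes of the bile duct marker list (Krt19, Krt7, Epcam, Spp1 and Sox9), 2 were called lower with age in WT (median -1.16) and 1 in KO (median -0.77). Their sum ran from 49.5 to 168 CPM in young WT and from 16.6 to 53.9 CPM in old WT libraries, and from 65.3 to 195 CPM and 53.2 to 86.0 CPM in KO. Of 5 mesothelium markers, which share Krt19 with that list, all were below 0 in WT (median -0.87, 1 called), with sums of 159 to 839 CPM in young and 64.1 to 358 CPM in old libraries. In KO ageing none of the 5 was called. Of 5 adipocyte markers none was called in WT (median -0.35), and 1 rose in KO (median 0.21). None of 7 hepatocyte markers was called in either genotype. The part of these markers in the results on the zonation genes in adipose tissue was not tested.

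**Figure D4:**
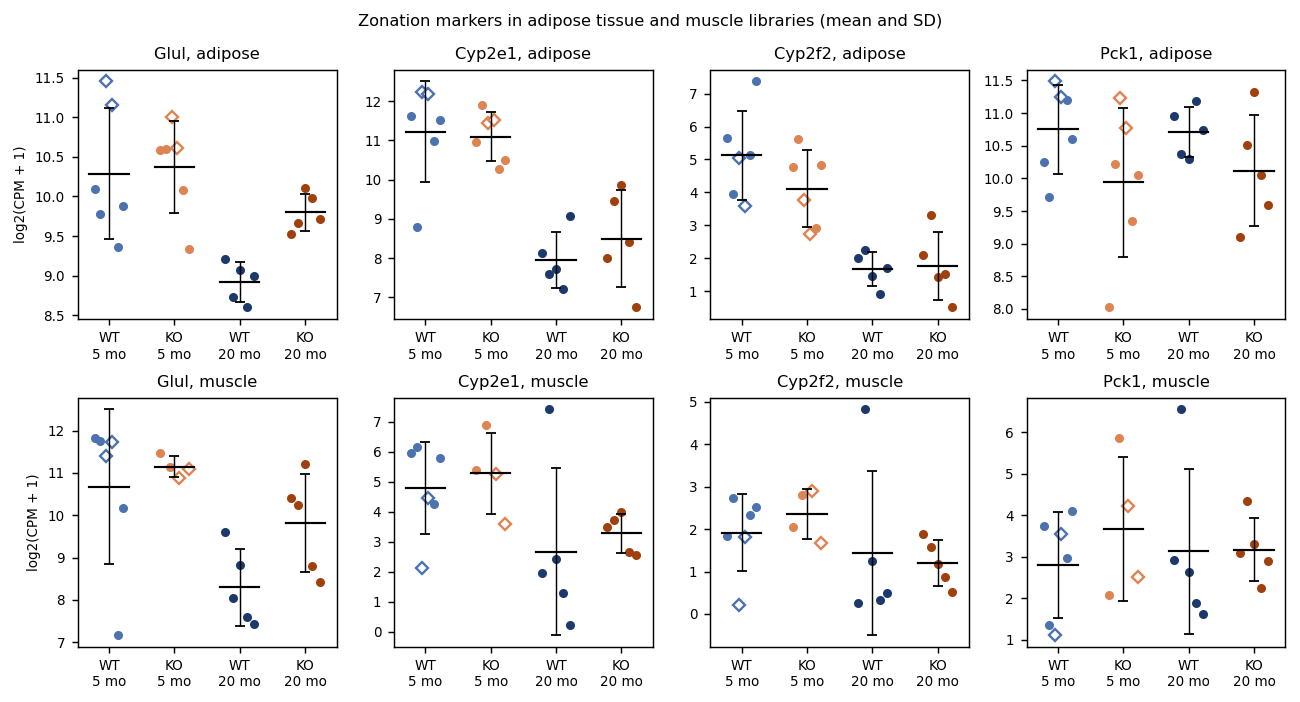
Levels of Glul, Cyp2e1, Cyp2f2 and Pck1 in adipose tissue (top) and muscle (bottom) as log2(CPM + 1), with 1 point per library, open diamonds for libraries with Xist, and bars for the mean and SD. Old WT adipose libraries lie under all old KO ones for Glul, and the muscle library W18S42 stands apart for Cyp2e1 (171 CPM), Cyp2f2 (27.4 CPM) and Pck1 (93.0 CPM).

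In muscle 5 of 10 passed the filter (Cyp2f2, Pck1, Glul, Cyp2e1 and Oat). The old WT library W18S42 held hepatocyte transcripts, with Alb at 1970 CPM against 0 to 3.11 CPM in the other 4 old WT libraries. It also held Gls2 at 13.2 CPM, Hal at 9.58 CPM, Sds at 4.24 CPM and Cyp1a2 at 2.48 CPM. In those 4 libraries none of these 4 genes exceeded 0.406 CPM.

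Glul was the one member called in WT muscle ageing, on a background of 7.68% called lower. Young WT libraries ran from 142 to 3631 CPM (median 3051), and old ones held 782, 265, 450, 192 and 171 CPM. The low young library W5S5277, at 142 CPM, lay under every old one, and the 5 others lay above all of them. The difference was -2.37 (SE 0.693, adjusted p = 0.0246 with limma). The call was lost with no filter on low values (0.0527), with the 2 groups alone (0.0682), with sex as a covariate (0.0542), without the Xist libraries (0.141) and without W18S42, W18S66, W18S72, W5S5004, W5S5007 or W5S5042. Without W18S42, Cyp2e1 (-3.32, adjusted p = 0.0133 with limma) and Cyp2f2 (-1.33, adjusted p = 0.0473 with limma) were called. KO ageing called no member with limma (background 5.57%), none at an unadjusted p under 0.05 (3386 of 13237 tested genes) and none with edgeR or DESeq2.

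KO against WT called no member in muscle with limma at 5 months (background 0%) or at 20 months (background 0.0302%), nor with edgeR or DESeq2. The unadjusted p was under 0.05 for 0 members at 5 months and for 1, Glul, at 20 months, beside 543 and 1821 of 13237 tested genes. Old KO muscle held 1353, 1216, 2362, 443 and 342 CPM of Glul, within and above the WT range. The difference was 1.51 (SE 0.724, adjusted p = 0.362 with limma). Old KO means of Glul were thus 1.75, 1.84 and 3.07 times the WT means in liver, adipose tissue and muscle. None of the 3 differences at 20 months was called with limma.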

How the data were processed

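The deposited table, made with CLC Genomics per the file headers, gives for each gene ID a read signal per library that the authors called CPM. Its column sums ran from 0.529 to 1.64 M. Whole reads were recovered from it for 100% of values (within 0.1 read), 15.4 to 28.5 M per library. The builds GRCm38.p6 and mm10 are given in the submitters' processing notes. Gene names came from a RefSeq table of GRCm38.p6 (35336 of 36332 IDs). No 2 libraries of a group agreed within sampling noise (lowest chi-square per degree of freedom 13.5).

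In each tissue, genes above 1 CPM in as many libraries as the smallest group holds, or more, were tested with limma 3.58.1 (R 4.3.3) on log2(CPM + 1), 4 group means, trended variances and Benjamini-Hochberg adjustment at 0.05. This scale understates changes of low genes. On simulated liver data (12924 genes, KO against WT at 5 months), the step called 61% of 2-fold and 96% of 4-fold changes. The simulation changed more genes than the 9 called in the data and scaled each library by known factors. Its shares can therefore exceed those for the real values. The alternatives were a pseudocount of 0.1, no filter, values rescaled to sum to 1 M, TMM factors, edgeR 4.0.16 and DESeq2 1.42.0 on the recovered reads, the 2 groups alone, sex (by Xist) as a covariate, leaving out the Xist libraries, each library in turn and, added after seeing the data, the adipose libraries with Crisp1. The members, gene lists and motifs were chosen with earlier results of these data known. The text names all members, the list genes called in a liver comparison and the largest of lists with none. Other genes were named after their values were seen.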

Additional observations from a re-analysis of the deposited data

Results flagged for a closer look

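In 8 of 88 groups examined (a member in a group of 4 to 6 libraries), 1 library stood apart from the others by Dixon's test, where chance gives about 1 in 20 groups. That rate takes the groups as independent, and 3 of the 8 share the library W18S42. In liver, Pck1 was at 9551 CPM in the young KO library K5L5248, against 2957 to 5248.2 CPM in the other 5. Cyp1a2 was at 731 CPM in the young WT library W5L5005 (231 to 393 CPM in the others) and at 388 CPM in the old WT library W18L04 (179 to 214 CPM in the others). Rhbg was at 15.4 CPM in the old KO library K18L07, against 6.80 to 9.16 CPM in the others. In young WT adipose tissue Cyp2f2 was at 165 CPM in W5F5299, one of the libraries with Crisp1, against 10.97 to 48.8 CPM in the others. In old WT muscle the library W18S42 stood apart for 3 members: Cyp2f2 at 27.4 CPM (0.203 to 1.39 CPM in the others), Pck1 at 93.0 CPM (2.08 to 6.63 CPM) and Cyp2e1 at 171 CPM (0.152 to 4.41 CPM). That library also held Alb at 1970 CPM. The part of its hepatocyte transcripts in the values of these members was not tested.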

How the results depend on the processing

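The alternatives kept each liver count of called members within 1.5 times its main value except where given here. KO against WT at 20 months gave 1 with DESeq2 against 0, and KO ageing gave 1 with DESeq2, 1 with sex as a covariate and 2 without the Xist libraries, against 0. Leaving out 1 library at a time gave 2 to 5 called members in WT ageing and 0 to 1 in KO ageing of liver. In adipose tissue the count was 1 without the Xist libraries in KO against WT at 5 months, against 0, and 1 to 3 in KO ageing with a library left out, against 2. In muscle, WT ageing gave 0 with no filter, with the 2 groups alone, with sex as a covariate and without the Xist libraries, against 1, and 0 to 2 with a library left out. Muscle KO ageing gave 2 with the 2 groups alone, against 0. Signs turned for these differences, none of which was called with all libraries by limma. In liver, KO against WT at 5 months was 0.013 for Hal and 0.21 for Oat without the Xist libraries, and -0.056 with edgeR and -0.055 with DESeq2 for Rhbg. KO against WT at 20 months was 0.030 for Cyp2f2 on rescaled values, 0.032 for Sds with edgeR and 0.031 with DESeq2, and -0.0070 for Cyp1a2 with TMM factors. WT ageing was 0.12 for Cyp2f2 and 0.17 for Cyp2e1 on rescaled values, and 0.12 for Cyp2e1 without the Xist libraries. KO ageing of Cyp2f2 was -0.27 with sex as a covariate and -0.31 without the Xist libraries. In adipose tissue at 5 months Rhbg, at 0.29 with limma, was at -0.15 with edgeR and -0.15 with DESeq2. In muscle WT ageing Cyp2f2, at -0.48 with limma, was at 0.75 with edgeR and 0.74 with DESeq2. With a liver library left out, KO against WT at 5 months ran from -0.025 to 0.19 for Cyp2e1 and from -0.23 to 0.25 for Rhbg. At 20 months it ran from -0.13 to 0.11 for Cyp2f2, -0.26 to 0.0011 for Hal, -0.34 to 0.13 for Sds, -0.022 to 0.33 for Pck1, -0.18 to 0.20 for Cyp1a2 and -0.072 to 0.36 for Oat. WT ageing ran from -0.26 to 0.046 for Cyp2f2 and from -0.18 to 0.044 for Cyp2e1, and KO ageing of Cyp2f2 from -0.058 to 0.28. The cause of these turns was not tested. Over all genes, DESeq2 called 1459 in WT ageing of liver and 778 in KO ageing, against 929 and 386, and leaving out the Xist libraries gave 413 and 567. No paired analysis was possible because the groups compared share no code number, the numbers of young libraries recurring only across tissues.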
